A study of Mus musculus with 2 samples.

Results

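Integrins and the adhesion molecules that work beside them were followed through the leukocytes of mouse skin inflamed with house dust mite. The genes were chosen by symbol: those beginning with Itga or Itgb, plus Icam1, Icam2, Vcam1, Selplg, Cd44, Pecam1, Cdh1, Epcam and F11r. Of 27998 listed genes, 41 matched, and 36 of these had 20 or more UMIs (barcoded counts of single captured RNA molecules) in the barcodes kept as cells. The other 5, namely Itga10 with 12, Itga11 with 17, Itgb1bp2 with 6, Itgb2l with 15 and Itgb6 with 10 UMIs, were too scarce to describe. Jaml, also sought, is listed under its older symbol Amica1 and is given at the end of the levels.

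There were 2 libraries of live CD45+ cells from dorsal neck skin, measured by droplet single-cell RNA sequencing that counts the 3′ end of transcripts. The first came from C57Bl/6 mice of the genotype IL31RAKO, which lack the receptor chain for interleukin 31, an itch-inducing cytokine. The second came from WT C57Bl/6 mice. Each library pooled 4 mice, and both genotypes received the same Biostir mite ointment, 2 applications a week for 3 weeks after a 2% SDS pretreatment, so that no untreated skin was compared. The ages of the mice are not given in the sources used here. With 1 library per genotype there is no test and no p-value, and every interval given covers counting error only, with no variation between mice, pools or sorts.

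The IL31RAKO library held 71333292 UMIs and the WT library 57000499. After removal of doublets, 12909 IL31RAKO and 10795 WT cells were left, with medians of 2978 and 2829 UMIs per cell, and 247 of the kept barcodes occurred in both libraries, against 236.6 for random draws. Ptprc, which encodes CD45, had a UMI in 73.8% of IL31RAKO and 71.5% of WT cells. Il31ra had 24 UMIs in the IL31RAKO and 10 in the WT cells, which does not check the genotype label, because reads come from the 3′ end and the deleted exons are not given in the sources used here. Cells were assigned to classes by a gate on marker genes, none of them among the adhesion genes. The suffix "-like" marks a class named this way, and 26.5% of IL31RAKO and 31.0% of WT cells were assigned to none. Small keratinocyte-like, fibroblast-like and endothelial-like classes were present although a CD45 sort should remove such cells, with 57, 59 and 29 cells in IL31RAKO and 124, 62 and 66 in WT. The class called basophil-like (146 IL31RAKO and 86 WT cells) had 3 basophil and 3 mast cell markers among its 10 leading genes, so it may hold both cell types.

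Integrins are receptors made of 1 alpha and 1 beta chain that hold cells to matrix or to other cells, and the pairing of chains sets the ligand. Leukocytes roll on vessel walls through selectins and their ligands, stop when integrins of the beta 2 and alpha 4 groups bind ICAM and VCAM proteins on endothelium, and then pass through junctions. In skin, other members of the group serve residence: αE with β7 binds E-cadherin on keratinocytes, and E-cadherin and EpCAM are themselves made by Langerhans cells.

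Itgam and Itgax, the alpha chains CD11b and CD11c of 2 beta 2 integrins, are neighbours on chromosome 7 with different patterns over the classes, Itgam being low and Itgax highest in Langerhans-like cells while neutrophil-like cells held both, so the 250 bases before each start are printed here (RefSeq, GRCm38.p6, plus strand). Itgam lies at chr7:128062640-128118491 and its window at chr7:128062390-128062639. The window before Itgax, which lies at chr7:128129547-128150657, is chr7:128129300-128129549. Capitals mark the letters GAGGAA or their reverse complement TTCCTC, a core that the myeloid factor PU.1 can bind.
Itgam: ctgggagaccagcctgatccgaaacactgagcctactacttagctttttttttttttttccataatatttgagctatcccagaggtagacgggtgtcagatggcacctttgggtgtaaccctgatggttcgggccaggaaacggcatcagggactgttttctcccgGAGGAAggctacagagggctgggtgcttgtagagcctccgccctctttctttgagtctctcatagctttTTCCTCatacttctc
Itgax: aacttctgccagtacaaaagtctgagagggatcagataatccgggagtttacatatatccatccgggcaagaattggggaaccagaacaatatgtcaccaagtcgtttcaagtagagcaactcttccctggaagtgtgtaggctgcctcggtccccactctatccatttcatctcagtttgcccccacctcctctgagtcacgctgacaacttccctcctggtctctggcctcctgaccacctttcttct
The Itgam window held 2 such matches and the Itgax window 0, while 23.3% of 32851 mouse promoter windows of 250 bases held at least 1. PU.1 is known from human cells to act on the promoter of ITGAM. A match describes letters, not a bound site, and the absence of these letters in this window says nothing of whether the factor acts there.

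The beta 2 integrins are the leukocyte group proper. Levels are given as CPM, UMIs per 1000000 UMIs summed over a class in 1 library. They are compared for 1 gene across classes and not between genes. Itgb2, the shared beta chain, spanned the leukocyte classes, at 208 CPM in IL31RAKO and 240 CPM in WT monocyte-like cells, and at 232 and 198 CPM in Cd8-positive T-like cells. Itgal, whose product CD11a forms the LFA-1 receptor for ICAM proteins, was highest in lymphocytes: Cd4-positive T-like cells had 199 CPM in IL31RAKO and 168 CPM in WT, dermal γδ T-like cells 183 and 212 CPM, and cDC2-like cells (type 2 conventional dendritic cells) only 17.0 and 27.9 CPM.

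Itgam was carried by myeloid cells and basophil-like cells. Its level was 160 CPM (95% interval 150 to 169) in IL31RAKO and 152 CPM (137 to 167) in WT macrophage-like cells, 141 and 143 CPM in monocyte-like cells and 144 and 156 CPM in neutrophil-like cells. Basophil-like cells had 200 CPM (159 to 250) in IL31RAKO and 161 CPM (113 to 223) in WT, with intervals that overlap those of macrophage-like cells in both libraries. In Cd8-positive T-like cells Itgam had 5.2 and 1.4 CPM, below the 21.1 and 25.5 CPM of free RNA, that is, of barcodes with 10 to 50 UMIs that hold no cell. These barcodes held only 189990 UMIs in IL31RAKO and 235401 in WT over all genes. For a scarce gene the free-RNA level thus rests on few UMIs, and no interval is given for it. A second row named Itgam, ENSMUSG00000108596, had 77 UMIs in IL31RAKO and 36 in WT cells. The annotation of this build calls it Gm49368 and places it over Itgam on the same strand, so reads of the 2 cannot be told apart with certainty.

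Itgax was highest in Langerhans-like cells, at 148 CPM in IL31RAKO and 168 CPM in WT, with a UMI in 67.9% and 71.2% of cells. It was not a gene of dendritic classes alone: cDC2-like cells had 78.6 and 94.3 CPM, neutrophil-like cells 51.4 CPM (40.6 to 64.3) and 111 CPM (78.4 to 153), and cDC1-like cells 42.2 and 50.7 CPM. Neutrophil-like cells were thus below cDC2-like cells in IL31RAKO, and above them in WT, where their interval held the cDC2-like value. Itgad, the alpha chain of the remaining beta 2 integrin, was close to absent, with 7 UMIs in IL31RAKO and 9 in WT over all cells.

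**Figure D1:**
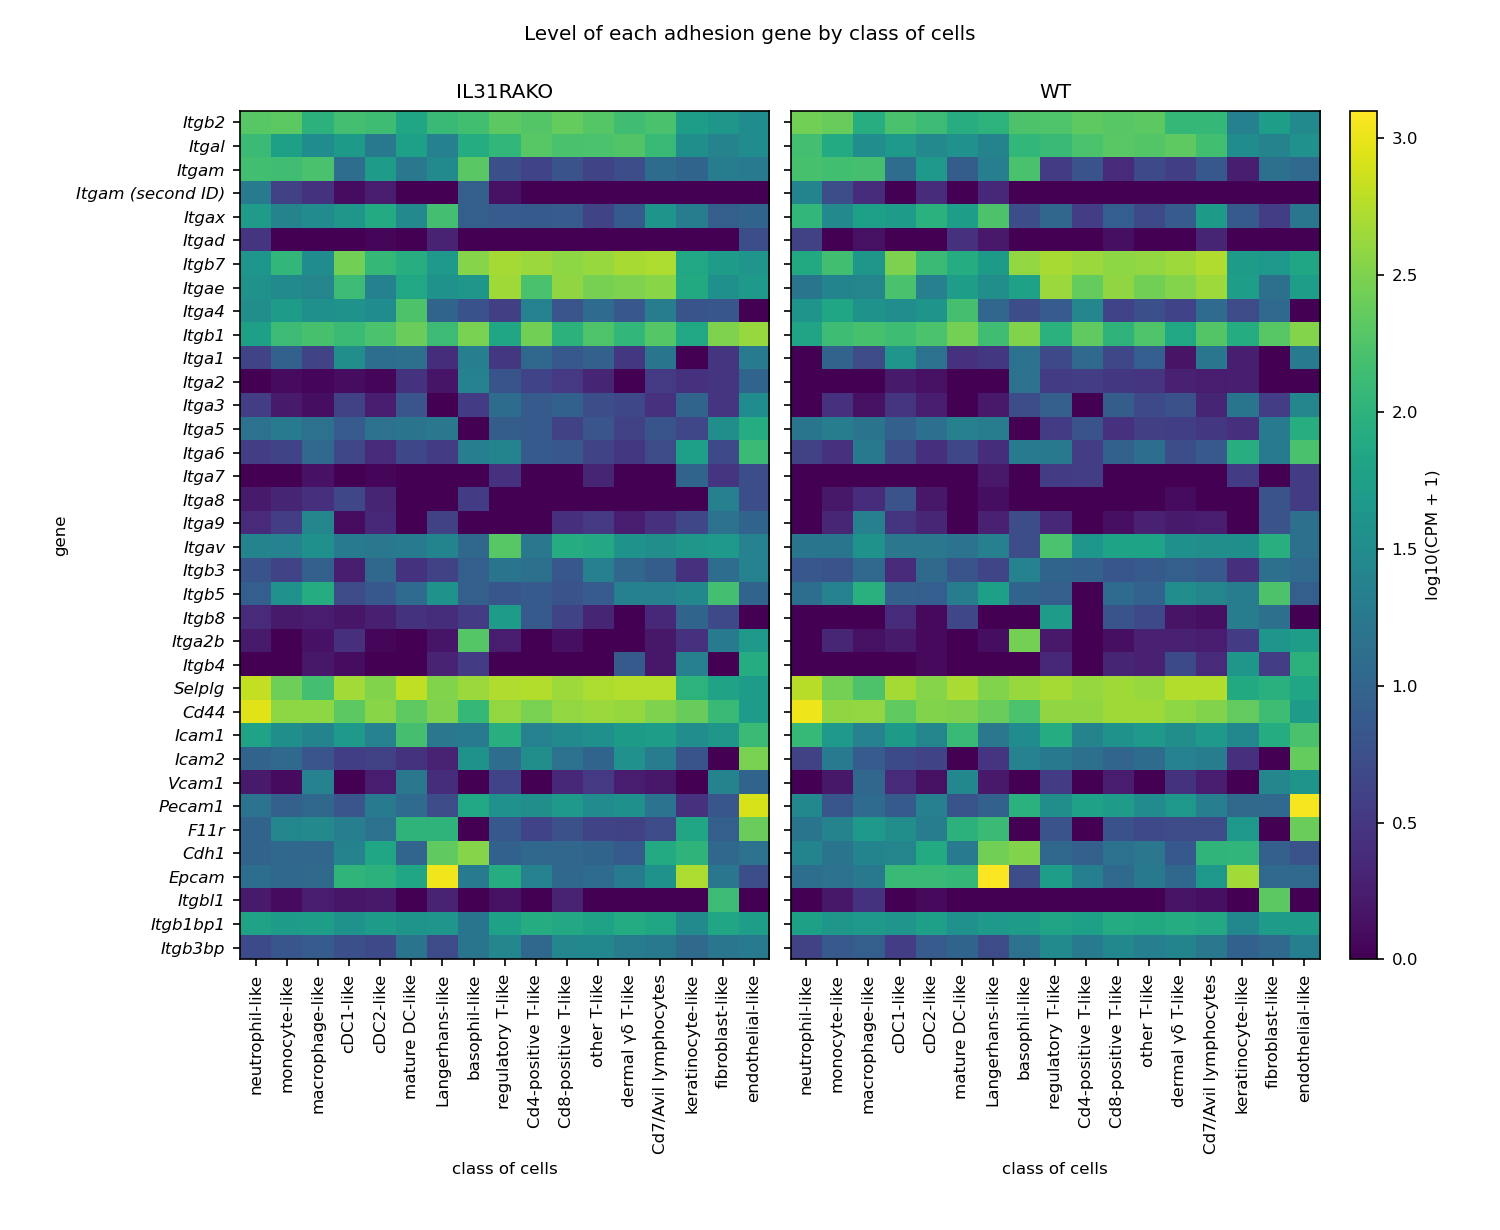
Level of each of the 36 adhesion genes (rows) in 17 classes of cells (columns), IL31RAKO on the left and WT on the right, as log10(CPM + 1) in colour. The libraries show nearly the same map: Itgb7 and Itgae are bright across T-like classes, Epcam in Langerhans-like and keratinocyte-like cells, Itga2b in basophil-like cells and Pecam1 in endothelial-like cells.

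The αE chain, CD103, forms with β7 a receptor for E-cadherin, a mark of tissue-resident lymphocytes and of type 1 conventional dendritic cells (cDC1). Itgae reached 459 CPM (434 to 485) in IL31RAKO and 427 CPM (395 to 461) in WT regulatory T-like cells. The Cd7/Avil lymphocytes, named for their leading genes and holding 5 markers of epidermal γδ T cells among the first 10, had 353 CPM (325 to 383) and 436 CPM (411 to 461). The order of these 2 classes thus differed between libraries, and in WT their intervals overlapped. Among dendritic cells Itgae was at 134 CPM in IL31RAKO and 159 CPM in WT cDC1-like cells, against 21.8 and 21.6 CPM in cDC2-like cells. Itgb7 had the same outline, with 526 CPM in IL31RAKO and 544 CPM in WT Cd7/Avil lymphocytes, 483 and 493 CPM in regulatory T-like cells and 275 and 310 CPM in cDC1-like cells. It was also at 345 and 398 CPM in basophil-like cells, where Itgae had 43.1 and 58.2 CPM.

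The 2 chains were often found in the same cells. Of 17 classes with at least 20 cells in each library, the share of cells with an Itgb7 UMI was higher among cells with an Itgae UMI than among the others in 16 in IL31RAKO and in 15 in WT. The exceptions were Cd4-positive T-like cells in IL31RAKO, at 54.8% against 65.2%, and in WT Langerhans-like cells, at 31.3% against 33.3%, and neutrophil-like cells, where 0 of 5 cells with Itgae had Itgb7. In cDC1-like cells, 90.5% of the IL31RAKO cells with an Itgae UMI also had an Itgb7 UMI, against 68.1% of those without; in WT the shares were 89.8% and 62.9%. In regulatory T-like cells the shares were 71.4% and 52.6% in IL31RAKO, and 68.2% and 58.8% in WT. Deeper cells show more of every gene, and these shares are not corrected for that. A higher share was not particular to this pair. It was found for Itgax with Itgb2 in 15 classes in IL31RAKO and 15 in WT. For Itgae with Cdh1, which are not chains of 1 receptor, it was found in 12 and 13. For Itga2b with Itgb3 it was found in 2 and 2, but both genes were thinly detected. Outside basophil-like, endothelial-like and fibroblast-like cells only a few cells of a class had an Itga2b UMI, and a class with none counted as not higher. The low count of this pair thus cannot be set against the others.

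Among beta 1 partners, Itga4 stood out for mature DC-like cells, dendritic cells with the migratory markers Ccr7 and Fscn1, of which there were 74 in IL31RAKO and 91 in WT. The alpha 4 chain pairs with beta 1 to bind VCAM-1 or with beta 7 to bind the gut addressin. Itga4 had 168 CPM (136 to 207) in IL31RAKO and 153 CPM (122 to 189) in WT mature DC-like cells, and 51.2 and 67.0 CPM in monocyte-like cells. Of the mature DC-like cells with an Itga4 UMI, 91.4% in IL31RAKO and 78.6% in WT had Itgb1, against 48.7% and 57.1% of the others. Itgb7 was found in 7 of 35 and 13 of 42 cells with Itga4, 20% and 31.0%, against 48.7% and 30.6% of the others. Among lymphocytes, Itga4 had 22.8 and 26.2 CPM in Cd4-positive T-like cells, on only 7 and 10 UMIs, 19.7 and 11.05 CPM in Cd7/Avil lymphocytes and 5.5 and 3.2 CPM in Cd8-positive T-like cells, where the median over classes was 11.2 and 10.5 CPM.

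Itgb1, the most widely shared beta chain, was highest in endothelial-like cells at 414 CPM in IL31RAKO and 333 CPM in WT, and lowest, among the T-like and myeloid classes, in neutrophil-like cells at 56.8 and 63.2 CPM. Its other partners were thinly detected. Itga1, a collagen receptor chain that shares part of its span with Pelo on the same strand, was led by cDC1-like cells at 33.0 and 40.8 CPM. Itga2, another collagen receptor chain, had 59 UMIs in IL31RAKO and 31 in WT over all cells and was too scarce to rank. Itga5, the fibronectin receptor chain, had 81.0 and 85.2 CPM in endothelial-like cells, and Itga3, a laminin receptor chain, 31.5 and 25.8 CPM there, on only 7 and 10 UMIs. Itga9, whose product binds VCAM-1 and tenascin, was led by macrophage-like cells, at 25.8 CPM (22.2 to 29.9) in IL31RAKO and 21.5 CPM (16.3 to 27.8) in WT. No UMI of it was found in free RNA, where a gene this scarce could be missed.

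The αv chain and its beta partners bind matrix proteins and activate the cytokine TGF-β, the role for which αvβ8 on regulatory T cells is known. Regulatory T-like cells led both chains. Itgav had 197 CPM (181 to 215) in IL31RAKO and 167 CPM (147 to 188) in WT, and the next class among leukocytes, Cd8-positive T-like cells, had 82.6 and 62.6 CPM. Itgb8 had 49.0 CPM (41.1 to 58.0) in IL31RAKO and 48.8 CPM (38.4 to 61.1) in WT regulatory T-like cells, against 3.3 and 5.4 CPM in Cd8-positive T-like cells. Free RNA held no UMI of it, but at its depth could miss a gene this scarce. After thinning of each cell to 1000 UMIs, 4.3% of IL31RAKO and 4.6% of WT regulatory T-like cells still had an Itgb8 UMI. Of those with an Itgav UMI, 13.7% in IL31RAKO and 15.1% in WT had one of Itgb8, against 9.3% and 8.8% of the others. Itgb5, the vitronectin receptor chain, went with macrophage-like cells, at 81.4 and 93.1 CPM, and fibroblast-like cells, at 148 and 173 CPM. Itgb3 stayed at or below 22.5 CPM in IL31RAKO and 22.4 CPM in WT in every class of 20 or more cells.

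**Figure D2:**
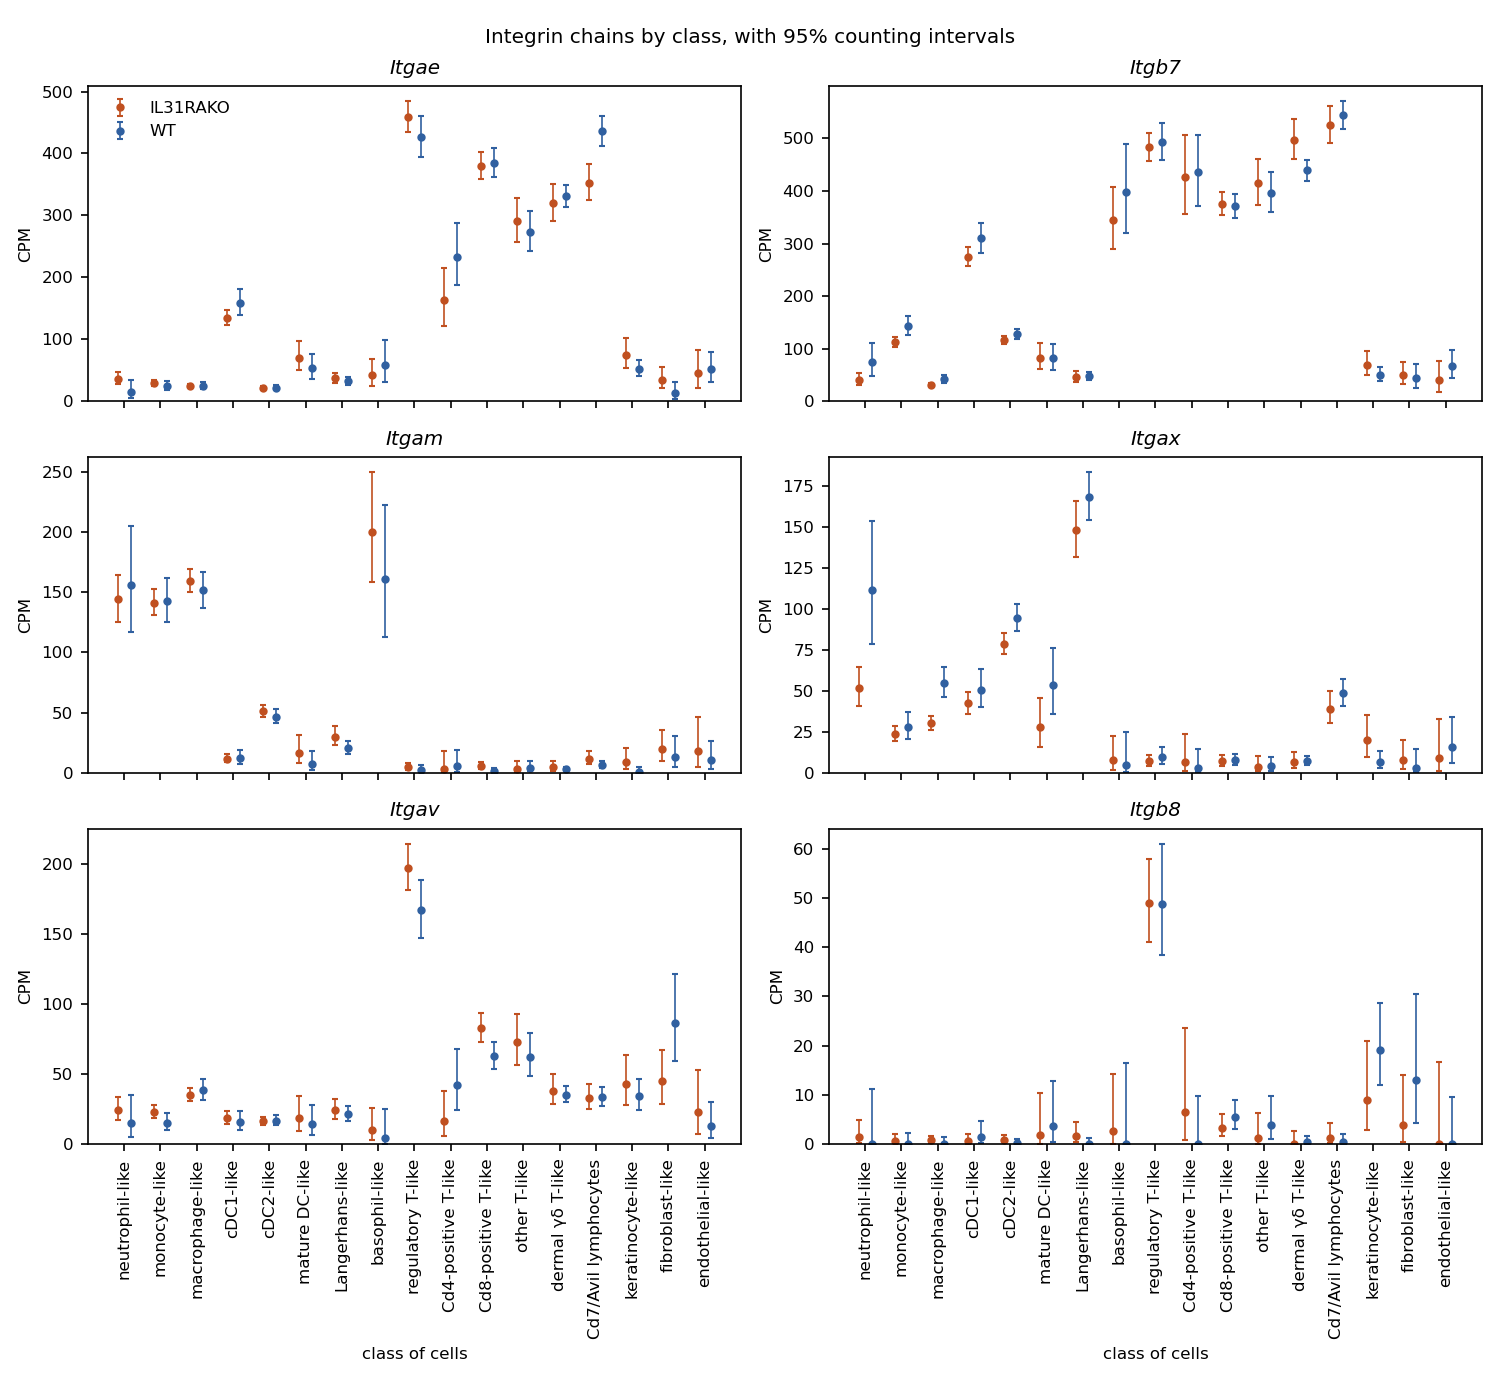
CPM of 6 integrin chains in 17 classes of cells, IL31RAKO left (orange) and WT right (blue) in each pair, with bars for the 95% Poisson counting interval. Itgae and Itgb7 are high in the T-like classes and cDC1-like cells, Itgam is high in neutrophil-like, monocyte-like, macrophage-like and basophil-like cells, Itgax is highest in Langerhans-like cells and also present in neutrophil-like cells, and Itgav and Itgb8 peak in regulatory T-like cells in both libraries.

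Itga2b, the CD41 chain best known from platelets, was in this sort a gene of basophil-like cells, at 190 CPM (150 to 239) in IL31RAKO and 282 CPM (217 to 361) in WT, with a UMI in 39.0% and 48.8% of cells. Its partner Itgb3 had 7.6 and 22.4 CPM there. Itga6 and Itgb4, which form the hemidesmosome laminin receptor of basal keratinocytes, were led by endothelial-like cells: Itga6 had 130 and 160 CPM and Itgb4 81.0 and 98.2 CPM. In keratinocyte-like cells Itga6 had 55.4 and 84.4 CPM and Itgb4 21.4 and 43.0 CPM. Itga7, with 20 and 12 UMIs over all cells, and Itga8, with 57 and 26, were too scarce to rank.

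Both the selectin ligand and the hyaluronan receptor had their highest CPM in neutrophil-like cells. Selplg, which encodes the P-selectin ligand PSGL-1, had 660 CPM (619 to 702) in IL31RAKO and 578 CPM (499 to 665) in WT neutrophil-like cells, 629 and 509 CPM in mature DC-like cells, 569 and 552 CPM in Cd7/Avil lymphocytes, 565 and 545 CPM in dermal γδ T-like cells and 148 and 172 CPM in macrophage-like cells. The neutrophil interval holds the mature DC-like value in IL31RAKO and the values of all 3 of these classes in WT, so that the lead of neutrophil-like cells is not resolved. Cd44 had 907 CPM (859 to 956) and 1038 CPM (931 to 1153) in neutrophil-like cells, and its next class had 426 CPM in IL31RAKO (other T-like cells) and 455 CPM in WT (Cd8-positive T-like cells).

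Among the immunoglobulin-family counter-receptors and junction proteins, Pecam1, Icam2 and F11r were highest in endothelial-like cells in both libraries. Pecam1, the endothelial junction protein CD31, had 805 CPM in IL31RAKO and 1139 CPM in WT endothelial-like cells, and Icam2 had 301 and 235 CPM there. F11r, the junction protein JAM-A, had 243 and 251 CPM in endothelial-like cells, 102 and 130 CPM in Langerhans-like cells and 102 and 95.8 CPM in mature DC-like cells. Icam1, the inducible ligand of LFA-1, had 154 and 121 CPM in mature DC-like cells and 130 and 163 CPM in endothelial-like cells. WT neutrophil-like cells had 117 CPM of it, and Langerhans-like cells were lowest, at 16.2 and 16.7 CPM. Vcam1, the ligand of α4β1, was scarce everywhere, with 253 UMIs in IL31RAKO and 122 in WT over all cells. Its levels were 23.3 and 26.2 CPM in fibroblast-like cells, 9.0 and 38.7 CPM in endothelial-like cells, on only 2 and 15 UMIs, 16.7 and 26.6 CPM in mature DC-like cells and 22.8 and 9.6 CPM in macrophage-like cells.

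Epcam and Cdh1 were genes of Langerhans cells but not of them alone. Epcam had 1087 CPM in IL31RAKO and 1209 CPM in WT Langerhans-like cells, 522 and 464 CPM in keratinocyte-like cells, and 106 and 125 CPM in cDC1-like cells. Cdh1, which encodes E-cadherin, had 221 CPM (201 to 243) and 277 CPM (259 to 296) in Langerhans-like cells and 345 CPM (290 to 408) and 322 CPM (252 to 406) in basophil-like cells. The Cd7/Avil lymphocytes had 78.4 and 106 CPM of Cdh1, above the 31.6 and 21.2 CPM of free RNA.

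Itgbl1, Itgb1bp1 and Itgb3bp match by symbol but encode no integrin chain. Itgbl1, a secreted integrin-like protein, was a fibroblast-like gene at 132 and 207 CPM. Itgb1bp1, a cytoplasmic partner of the beta 1 tail, had 42.0 and 45.9 CPM in Langerhans-like cells and 79.2 and 82.5 CPM in dermal γδ T-like cells, and Itgb3bp, a centromere protein, peaked at 27.0 CPM in IL31RAKO other T-like cells and 28.9 CPM in WT regulatory T-like cells. Amica1, the listed symbol of Jaml, whose product lets leukocytes bind epithelium, had 389 CPM in IL31RAKO and 312 CPM in WT dermal γδ T-like cells and 286 and 328 CPM in cDC1-like cells, against 28.3 and 29.2 CPM in Langerhans-like cells.

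The map of levels was close in the 2 libraries. Of 29 genes with 200 or more UMIs, 21 had the same class on top in both. Over 17 classes with at least 20 cells in each library, the correlation between libraries of log2(CPM + 1) had a median of 0.926 and a lowest value of 0.611 (Itgb1bp1) among these 29 genes. It is a description, since the libraries share preparation and gene detection.

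Between genotypes, levels within classes were set side by side for the 11 classes in which both libraries had at least 100 cells, for genes with 50 or more UMIs there. A gene was counted as past 1.5-fold when the ratio IL31RAKO over WT was at least 1.5 or at most its inverse, with a 95% counting interval that left out 1. Of 190 ratios of 27 adhesion genes, 7 were higher and 13 lower, in 14 genes. That is 3.68% higher and 6.84% lower, where 2.6% and 2.76% of all 73317 gene ratios in the 11 classes were. The 9 genes with no ratio, Itga2, Itga2b, Itga3, Itga7, Itga8, Itgad, Itgb4, Itgbl1 and the second Itgam row, stayed under the 50 UMIs in each of these classes. Every other ratio missed the count, which does not show that the levels were alike.

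**Figure D3:**
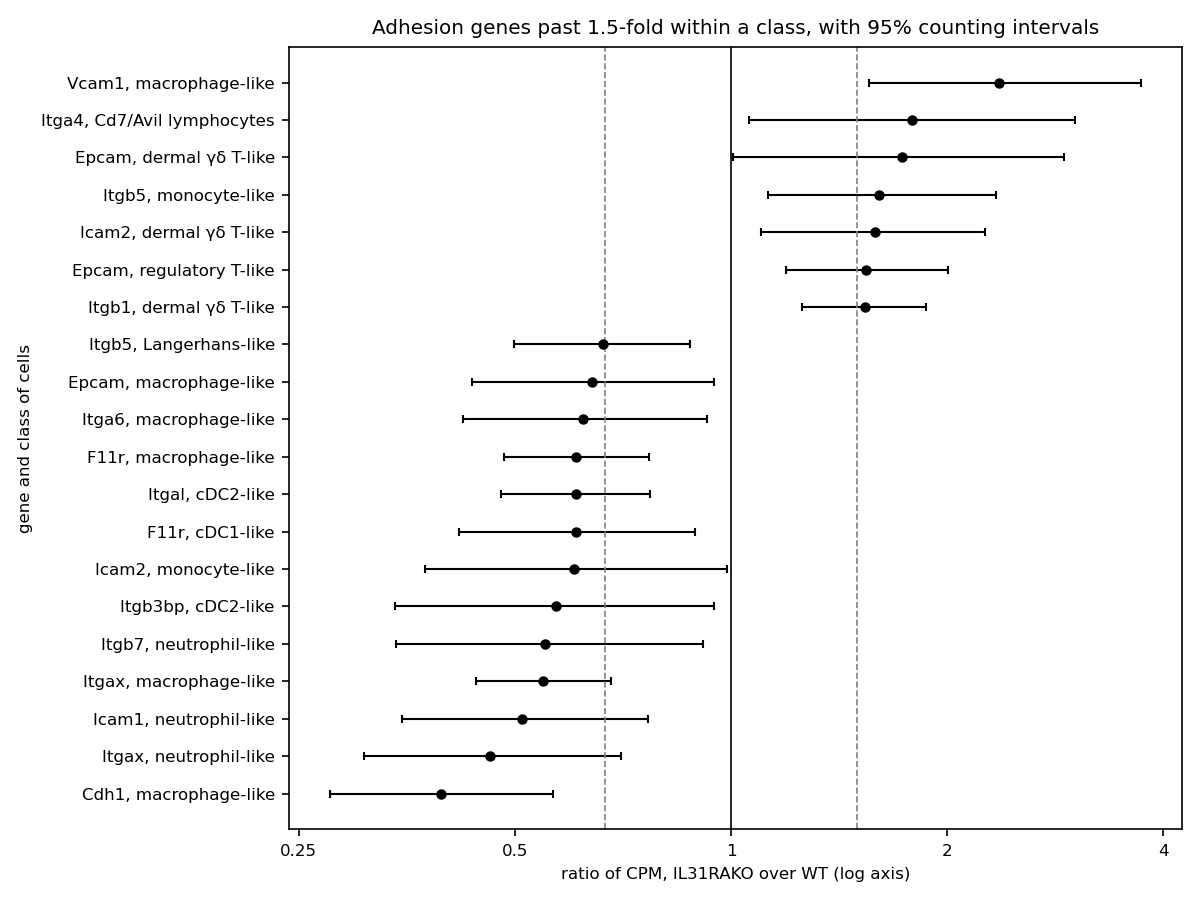
The 20 ratios of CPM, IL31RAKO over WT, that passed 1.5-fold within a class of cells, on a log axis with 95% counting intervals. Dashed lines mark 1.5-fold in each direction. Vcam1 in macrophage-like cells is the highest at 2.36 and Cdh1 in macrophage-like cells the lowest at 0.395, while several intervals, such as that of Epcam in dermal γδ T-like cells, end close to 1.

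Macrophage-like cells held 6 of the 20. In them 1 adhesion gene was higher and 5 were lower of 25, where 2.65% of all 8337 genes were higher and 2.24% lower. The median log2 ratio was -0.12 for the adhesion genes and 0.03 for all genes. Vcam1 had 158 UMIs and 22.8 CPM in IL31RAKO macrophage-like cells, against 26 UMIs and 9.64 CPM in WT, a ratio of 2.36 (1.56 to 3.73). A UMI of it was found in 5.15% of 2115 IL31RAKO and 2.11% of 996 WT cells. Itgax had 30.005 CPM in IL31RAKO and 54.9 CPM in WT, a ratio of 0.547 (0.441 to 0.680), and F11r had 28.0 and 46.0 CPM, a ratio of 0.609 (0.483 to 0.769).

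Cdh1 had 9.52 CPM in IL31RAKO and 24.1 CPM in WT macrophage-like cells, 66 against 65 UMIs, for a ratio of 0.395 (0.276 to 0.565). Epcam, at 10.7 and 16.7 CPM, had a ratio of 0.640 (0.436 to 0.949), and Itga6, at 10.4 and 16.7 CPM, had 0.623 (0.423 to 0.925). Markers of other cells moved beside these, in both directions. The 12 neutrophil markers summed to 576 CPM in IL31RAKO and 324 CPM in WT macrophage-like cells. The 9 monocyte markers summed to 1476 and 1245 CPM. The 10 keratinocyte markers were lower, at 93.8 CPM in IL31RAKO and 156 CPM in WT, with 1 of the 10 higher in IL31RAKO and none at 0 in both. The 12 T cell markers summed to 321 and 442 CPM. The part of these lists in the ratios was not tested. The share of the class's UMIs that looked like free RNA was estimated from the same T cell markers, against their level in free RNA. It is therefore not a separate observation from their sum. For lymphocyte classes the macrophage and neutrophil markers were used instead. In macrophage-like cells the share was 8.48% in IL31RAKO and 14.4% in WT. For Epcam, free RNA at that share would give 2.68 and 11.6 CPM, most of the WT level, and the ratio turned to higher once it was subtracted. The level of Epcam in free RNA itself rests on few UMIs, and its error was not carried into the subtraction. For Vcam1 it would give 0.00 and 0.61 CPM, and for Itgax 4.91 and 6.71 CPM.

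The macrophage-like class was not made up alike in the libraries. Cluster 8, led by Ccl8, Cd163 and Folr2, held 42.9% of its IL31RAKO and 27.3% of its WT cells, and cluster 0, led by Il1b, Thbs1 and Cd72, held 45.3% and 53.3%. These clusters were built without the adhesion genes. Within cluster 0, Vcam1 had 17.1 CPM in IL31RAKO and 6.15 CPM in WT, a ratio of 2.77 (1.40 to 6.11) on 55 and 10 UMIs. Itgax had 46.6 and 75.1 CPM there, a ratio of 0.620 (0.485 to 0.794), F11r 46.2 and 70.1 CPM (0.659, 0.513 to 0.849), and Cdh1 14.0 and 33.2 CPM (0.420, 0.277 to 0.636). Within cluster 8, Vcam1 had 33.3 and 25.7 CPM, a ratio of 1.30 whose interval, 0.759 to 2.36, held 1. Itgax had 12.1 and 9.62 CPM there (1.26, 0.525 to 3.67) and F11r 11.8 and 4.81 CPM (2.45, 0.770 to 12.5). The differences of Vcam1, Itgax, F11r and Cdh1 were thus present in cluster 0 and not resolved in cluster 8, where WT had 16, 6, 3 and 6 UMIs of them. Epcam went the other way. Its ratio was 0.689 (0.420 to 1.14) in cluster 0, with 1 inside the interval, and 0.414 (0.198 to 0.913) in cluster 8, on 23 and 12 UMIs. Itga6 was resolved in neither, at 0.668 (0.435 to 1.03) and 1.01 (0.281 to 5.47). The difference between the clusters was not tested.

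**Figure D4:**
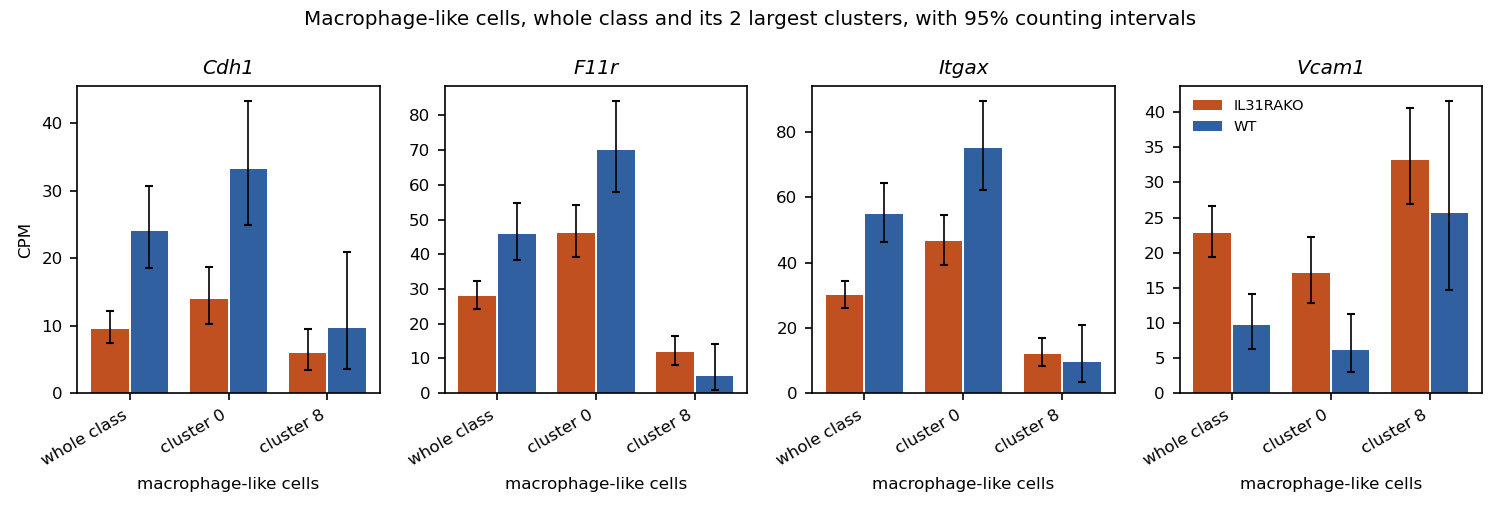
CPM of Cdh1, F11r, Itgax and Vcam1 in all macrophage-like cells and in their 2 largest clusters, IL31RAKO left (orange) and WT right (blue), with 95% Poisson counting intervals. In cluster 0 Cdh1, F11r and Itgax are lower and Vcam1 higher in IL31RAKO; in cluster 8 the intervals of the libraries overlap.

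In neutrophil-like cells 0 of 12 adhesion genes were higher and 3 were lower, where 2.67% of all 3145 genes were higher and 6.87% lower and the median log2 ratio of all genes was -0.14. Icam1 had 60.1 CPM in IL31RAKO and 117 CPM in WT, a ratio of 0.512 (0.348 to 0.766), with a UMI in 6.26% of 1135 and 10.0% of 270 cells. Itgax had 51.4 and 111 CPM, a ratio of 0.462 (0.308 to 0.703). Itgb7 had 41.4 and 75.2 CPM (0.551, 0.341 to 0.914), but free RNA at the estimated share of 16.2% in IL31RAKO and 21.7% in WT would give 38.3 and 47.1 CPM of it. The 12 neutrophil markers summed to 101583 CPM in IL31RAKO and 71000 CPM in WT neutrophil-like cells, so that they took a larger share of the total in IL31RAKO; their part in the lower ratios was not tested. Itgb2, at 195 and 274 CPM, had a ratio of 0.712 (0.561 to 0.912), short of 1.5-fold.

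In monocyte-like cells 1 of 20 adhesion genes was higher and 1 lower, where 2.53% of all genes were higher and 2.76% lower. Itgb5 had 36.2 CPM in IL31RAKO and 22.5 CPM in WT, a ratio of 1.61 (1.13 to 2.34) on 166 and 39 UMIs, with a UMI in 14.5% of 946 and 9.32% of 397 cells. The 13 macrophage markers were all higher in IL31RAKO monocyte-like cells, at 2719 against 1881 CPM in sum, and their part in the Itgb5 ratio was not tested. Icam2 had 10.5 and 17.3 CPM, a ratio of 0.604 (0.375 to 0.987), on 48 and 30 UMIs.

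Among dendritic cells few ratios passed. In cDC2-like cells 0 of 22 adhesion genes were higher and 2 were lower, where 1.26% of all genes were higher and 2.01% lower. Itgal had 17.0 CPM in IL31RAKO and 27.9 CPM in WT, a ratio of 0.608 (0.479 to 0.772), of which free RNA would give 8.28 and 11.7 CPM. Itgb3bp had 3.84 and 6.75 CPM (0.570, 0.341 to 0.947). In cDC1-like cells 0 of 17 were higher and 1 lower, where 2.35% of all genes were higher and 1.87% lower: F11r had 19.99 and 32.9 CPM, a ratio of 0.608 (0.418 to 0.890). It was no longer counted in Leiden clusters (log2 ratio -0.58) or after thinning to 1000 UMIs, where the log2 ratio was -0.14 in place of -0.72, and within cluster 15 the interval of its ratio, 0.454 to 1.01, held 1. In Langerhans-like cells 0 of 17 were higher and 1 lower, where 3.59% of all genes were higher and 2.58% lower: Itgb5 had 36.9 and 55.6 CPM, a ratio of 0.664 (0.499 to 0.877). It was no longer counted under 4 of 10 alternatives, among them the subtraction of free RNA (log2 ratio -0.53). Within cluster 16, which held 72.8% and 76.6% of the class, Itgb5 had 22.8 and 36.4 CPM, a ratio of 0.627 (0.412 to 0.935) on 35 and 92 UMIs. Marker lists moved beside it: in Langerhans-like cells the 12 neutrophil markers summed to 1559 CPM in IL31RAKO and 762 CPM in WT, and the 5 Langerhans cell markers to 9096 and 6106 CPM. The 13 macrophage markers, 12 of them higher in IL31RAKO, summed to 4393 and 3661 CPM, and the 8 dermal γδ T cell markers to 69.3 and 170 CPM. The part of these lists in the Itgb5 ratio was not tested.

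In the lymphocyte classes every ratio past 1.5-fold was a higher one. In dermal γδ T-like cells 3 of 15 adhesion genes were higher and 0 lower, where 3.71% of all genes were higher and 5.3% lower. Itgb1 had 111 CPM in IL31RAKO and 72.1 CPM in WT, a ratio of 1.54 (1.26 to 1.87), with a UMI in 28.8% of 364 and 23.5% of 983 cells. Icam2 had 35.9 and 22.6 CPM, a ratio of 1.59 (1.10 to 2.26). Epcam had 17.6 and 10.2 CPM (1.73, 1.01 to 2.91), of which free RNA would give 6.09 and 6.80 CPM. The free-RNA-like share of the class, estimated here from macrophage and neutrophil markers, was 19.3% in IL31RAKO and 8.42% in WT. The macrophage markers, which enter that estimate, summed to 394 and 212 CPM. Subtracting that share left Itgb1 at a log2 ratio of 0.57 and Icam2 at 0.56, both below 1.5-fold.

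In regulatory T-like cells 1 of 17 was higher and 0 lower, where 2.82% of all genes were higher and 2.12% lower. Epcam had 82.1 CPM (71.8 to 93.5) in IL31RAKO and 53.3 CPM (42.4 to 66.0) in WT, a ratio of 1.54 (1.19 to 2.01) on 228 and 83 UMIs, with a UMI in 16.6% of 1006 and 11.7% of 565 cells. Free RNA would give 9.19 and 12.5 CPM of it, and the 10 keratinocyte markers summed to 184 CPM in IL31RAKO and 219 CPM in WT, while the free-RNA-like share was 29.1% and 15.5%. In cluster 4, which held 78.0% and 78.8% of the class, Epcam had 112 and 69.0 CPM, a ratio of 1.62 (1.24 to 2.13). Cells thinned to 1000 UMIs had a UMI of it in 7.93% of IL31RAKO and 7.52% of WT cells, a near-equal share. In the Cd7/Avil lymphocytes 1 of 19 was higher and 0 lower, where 2.89% of all genes were higher and 2.19% lower: Itga4 had 19.7 and 11.05 CPM (1.79, 1.06 to 3.02) on 33 and 31 UMIs, of which free RNA would give 7.78 and 2.56 CPM. Of 15 adhesion genes in Cd8-positive T-like cells, 0 were higher and 0 lower, where 2.24% of all genes were higher and 2.24% lower. Of 11 in other T-like cells 0 were higher and 0 lower, where 2.04% and 2.46% of all genes were.

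Over all cells, where the mix of classes enters, 5 of 34 adhesion genes were higher and 5 lower, where 4.84% of all 13026 genes were higher and 8.24% lower. The higher ones were Itga9 at a ratio of 1.82 (1.46 to 2.29), Itga8 at 1.75, the second Itgam row at 1.71, Vcam1 at 1.66 (1.33 to 2.07) and Itgam at 1.64 (1.55 to 1.75). The lower ones were Itgb4 at 0.330 (0.234 to 0.459), Epcam at 0.594, Pecam1 at 0.631, Itga6 at 0.641 and Cdh1 at 0.641. Macrophage-like, neutrophil-like and monocyte-like cells numbered 2115, 1135 and 946 in IL31RAKO and 996, 270 and 397 in WT, whereas Langerhans-like cells were 184 and 320 and endothelial-like cells 29 and 66. With each class given its mean share of cells in both libraries, none of the 10 was past 1.5-fold and 9 kept their direction, and the log2 ratio of Itgam was 0.19 in place of 0.72. Itgam itself differed little within the classes that carry it, as the levels above show. The shares of classes in a sort of 1 pool per genotype were not tested.

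**Figure D5:**
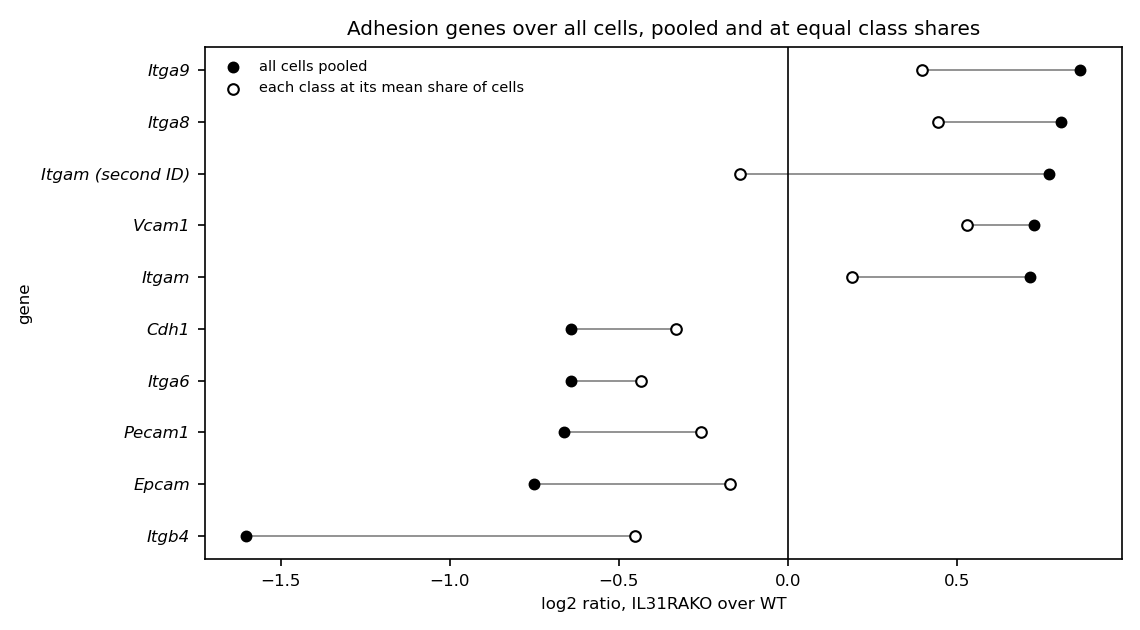
Log2 ratio IL31RAKO over WT of the 10 adhesion genes past 1.5-fold over all cells, pooled (filled) and with each class at its mean share of cells in both libraries (open). All 10 open points lie nearer to 0 than the filled ones, and that of the second Itgam row lies on the other side of 0, at -0.14.

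The machinery around the integrins was compared through 5 lists, to be read against the shares of all genes given above: 2.65% higher and 2.24% lower in macrophage-like cells, and 1.26% and 2.01% in cDC2-like cells. In lists this short, 1 gene is already 3.12% of 32 or 14.3% of 7, so a count of 1 does not set a list apart. Of the integrin activation and linkage list (talins, kindlins, Rap1 regulators and kinases), 32 genes could be compared in macrophage-like cells, with 1 higher and 0 lower, and 32 in cDC2-like cells, with 0 higher and 1 lower. The higher one was Rasgrp2, a Rap1 activator, at 20.8 CPM in IL31RAKO and 10.8 CPM in WT macrophage-like cells (1.93, 1.29 to 2.99), and the lower one Rapgef1, also a Rap1 activator, at 7.94 and 12.2 CPM in cDC2-like cells. Of 10 integrin ligands in macrophage-like cells 1 was higher: Thbs1, encoding the matrix protein thrombospondin 1, had 124 and 63.0 CPM (1.98, 1.67 to 2.34). Of 22 other adhesion and junction molecules there, 1 was higher and 3 were lower, 4.55% and 13.6%. Cd99l2 had 11.8 and 3.34 CPM, Cadm1 5.48 and 14.5 CPM, Cd226 5.77 and 10.4 CPM, and Cd9, a tetraspanin that associates with integrins, 125 and 191 CPM (0.654, 0.586 to 0.731).

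Of 7 selectins and selectin ligand enzymes in macrophage-like cells 1 was lower, Tpst1, at 7.93 and 12.98 CPM. In cDC2-like cells St3gal6, a sialyltransferase gene of that list, was lower, at 4.34 CPM in IL31RAKO and 7.12 CPM in WT. Of 12 sheddases and hyaluronan partners of CD44 in macrophage-like cells, the metalloproteinase genes Mmp9 and Mmp12 were on opposite sides. Mmp9 had 6.49 CPM in IL31RAKO and 1.85 CPM in WT on 45 and 5 UMIs, and Mmp12 had 43.6 and 93.4 CPM (0.466, 0.393 to 0.553). Mmp9 is also among the 12 neutrophil markers, which summed to 576 CPM in IL31RAKO and 324 CPM in WT macrophage-like cells. The part of neutrophil transcripts in its ratio was not tested. Of 22 other adhesion and junction molecules in cDC2-like cells 1 was higher and 2 were lower, 4.55% and 9.09%. Cd93 was higher, at 9.05 and 5.25 CPM, and Cd226, at 9.05 and 15.4 CPM, and Cd96, at 4.34 and 7.31 CPM, were lower. None of the 10 integrin ligands and none of the 12 sheddases and hyaluronan partners compared in cDC2-like cells was past 1.5-fold.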

How the data were processed

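The deposited values are raw UMI counts per gene and barcode, per the file headers and values, with empty droplets included. Cell Ranger 3.1, Seurat 3.2.2 and the build mm10 are named in the submitters' processing notes, with no role given. Barcodes were kept at 500 or more UMIs, 250 or more genes and under 10% mitochondrial UMIs (14619 IL31RAKO and 11934 WT). Scrublet in scanpy 1.11.5 ranked doublets, and the top 0.8% per 1000 cells were removed, 11.7% of IL31RAKO and 9.54% of WT barcodes. A cell joined a class when its mean marker z-score was at least 0.4, at least 0.2 above the next list and based on 3 or more detected markers. T-like cells were split by Cd8a, Cd8b1 and Cd4 UMIs. Leiden clusters (2000 variable genes, adhesion genes left out, 30 components, 15 neighbours, resolution 1.0) served as an alternative. Ratios of summed counts carry exact conditional (Clopper-Pearson) 95% intervals and levels exact Poisson ones (scipy 1.17.1). The ratios and their intervals were tested on simulated counts that held counting error alone. Such counts cannot check them against variation between cells, mice or pools. Intervals cover counting error only. Genes named are all those past 1.5-fold within a class, the leading class of genes with 200 or more UMIs, the listed integrin pairs and, from the other lists, at most 4 per list in the 2 largest classes. The genes and lists were chosen with earlier results of these data known. Coordinates are of GENCODE M21 on GRCm38, promoter sequences of RefSeq. Not every gene of the fixed lists is reported here.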

Additional observations from a re-analysis of the deposited data

Results flagged for a closer look

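Some genes were past 1.5-fold in opposite directions in 2 classes of cells, by ratios of 1 library per genotype, and none of these differences was tested. The log2 ratio IL31RAKO over WT of Epcam in dermal γδ T-like cells exceeded that in macrophage-like cells by 1.44, and that in regulatory T-like cells exceeded it by 1.27. In macrophage-like cells Epcam was close to what free RNA would give in WT, as given above. The log2 ratio of Icam2 in dermal γδ T-like cells exceeded that in monocyte-like cells by 1.39, with 48 and 30 UMIs behind the monocyte value. The log2 ratio of Itgb5 in monocyte-like cells exceeded that in Langerhans-like cells by 1.27.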

How the results depend on the processing

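Of the 20 ratios past 1.5-fold within classes, Itgax in macrophage-like and in neutrophil-like cells and Itgb5 in monocyte-like cells were counted again under all 10 alternatives. Being counted takes the fold, an interval without 1 and the UMI minimum, so that a ratio can drop out while its fold stays. Lowering that minimum to 20 UMIs was 1 of the 10 alternatives and could not drop a ratio already counted. All 20 were thus counted under it by construction, and it is no check on them. Cdh1 and Vcam1 in macrophage-like cells and Icam1 in neutrophil-like cells were counted under 9, all but thinning to 1000 UMIs, where their log2 ratios were -1.06, 0.84 and -0.82. Epcam in dermal γδ T-like and Icam2 in monocyte-like cells were counted under only 4, and Itgb1 in dermal γδ T-like cells under 5. All 20 were counted again with median-of-ratios size factors, 18 with cells of 1000 or more UMIs, 17 without the cell richest in the gene, 15 with a minimum of 100 UMIs, 15 with free RNA subtracted, 13 without doublet removal, 12 as a mean over cells, 11 in Leiden clusters and 7 after thinning. The ratio itself stayed past 1.5-fold in the same direction for 20, 19, 19, 20, 15, 15, 14, 12 and 17 of them under these alternatives, in that order. The count of higher ratios within classes, 7, was 17 with free RNA subtracted and 3 after thinning. Over all cells, the 5 higher genes were 2 as a mean over cells, 2 after thinning and 1 (Itga2) with each class at its mean share. The 5 lower genes were 3 without doublet removal, 2 with median-of-ratios size factors (over all cells the median log2 ratio of all genes was -0.10), 1 after thinning and 0 at mean shares. Directions turned for Epcam in macrophage-like cells with free RNA subtracted (log2 ratio 0.65), Icam2 in monocyte-like cells after thinning (0.74) and the second Itgam row at mean class shares (-0.14). Apart from the built-in effect of thinning on counts, the cause was not tested. Free RNA was not subtracted over all cells. No paired analysis was possible because each genotype has 1 library. Levels resting on a few UMIs in the smaller classes could not show a difference at this depth.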
